A study of Danio rerio with 6 samples.

Results

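Embryo-wide activation of β-catenin was examined by comparing GFP+ cells sorted from ‘Ubiquitous’ embryos with cells sorted from ‘Uninjected’ embryos. These 4 libraries, 2 per group, are part of a series of 6, and the comparison covers the 3905 of 32266 genes in the deposited table whose mean value over all 6 libraries was at least 2. ‘Ubiquitous’ embryos were zebrafish that carried a transgene in which the heat-inducible promoter of *hsp70l*, a heat shock gene, drives GFP together with β-catCA, a constitutively active form of β-catenin. ‘Uninjected’ embryos carried no β-catCA and their cells were sorted under similar conditions. The labels place both groups at 9 h post fertilization, during gastrulation, while the study's methods name a slightly earlier time of collection. The other 2 libraries were GFP+ cells of ‘Mosaic’ embryos, in which β-catCA was introduced into scattered cells. Because every sorted ‘Ubiquitous’ cell came from an embryo that carried the transgene throughout, the comparison addresses β-catenin activation without a difference between neighbouring cells.

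Several properties of these groups limit the comparison. The transgenic line was made to carry a single transgene, so its response is that of 1 insertion. No line with GFP alone was among the samples, and whether the ‘Uninjected’ embryos were heat-shocked is not given in the sources used here. β-catCA, GFP, heat shock and the genetic background of the line therefore cannot be told apart. The embryos of a group were pooled before sorting. The labels give the 2 libraries of a group different lot numbers but do not say that a lot was a separate pool. The p-values therefore measure the spread between libraries, which may be technical. In bulk RNA, fewer cells of a type and less RNA per cell cannot be told apart either.

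Wnt ligands stabilize β-catenin, which enters the nucleus and activates target genes together with Tcf/Lef factors. In the vertebrate gastrula Wnt/β-catenin activity is high posteriorly and low anteriorly, and the forebrain and eyes form where it is held low. Pathway activity also induces its own inhibitors, among them secreted Dkk and intracellular Nkd and Axin proteins.

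The deposited values are regularized logarithms (rlog, log2). The rlog corrects counts for library size and shrinks each gene's values together, most strongly for weakly counted genes, so differences between rlog values understate the change of weakly expressed genes. The whole counts behind these values were inferred by inverting the transformation. They totalled 345593 and 34540 in the ‘Ubiquitous’ libraries, against 58352 and 489310 in the ‘Uninjected’ libraries. The 2 shallow libraries, Ubiquitous 2 and Uninjected 1, held no count for 14.4% and 4.97% of the tested genes. A count of 0 allows a level of up to 0.869 per 10000 counts in Ubiquitous 2 and 0.0868 in Ubiquitous 1 (3 counts of the library total, counting error only). Shrinkage can also draw the 2 libraries of a group together. *OTX1*, with 13 and 0 counts in ‘Ubiquitous’ libraries, had rlog values of 3.04 and 3.05. The SEs, p-values and orders of libraries given below rest on these shrunken values, in which a count of 0 enters as a full replicate.

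Of the 3905 genes, 19 were called at an adjusted p-value under 0.1 by limma with Benjamini-Hochberg adjustment, which is 0.487% of those tested. Of these, 6 were higher in ‘Ubiquitous’ cells (0.154% of all tested genes) and 13 were lower (0.333%). The genes that rose included 3 known for their response to Wnt signalling (*dkk1b*, *NKD1* and *SP5*), and those that fell included eye and forebrain regulators (*rx3*, *six7*, *OTX1* and *otx2a*) and a group of cathepsin L-like genes. The median difference over all tested genes was -0.03, and 112 genes were higher and 152 lower at an unadjusted p-value under 0.05. Without Uninjected replicate 1, 20 genes were called lower, and without Uninjected replicate 2 only 2 were called higher, *dkk1b* and *UBB*. Adjusted over all 14132 genes not listed at 0, 7 genes were called, of which *dkk1b* was the 1 that was higher.

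**Figure D1:**
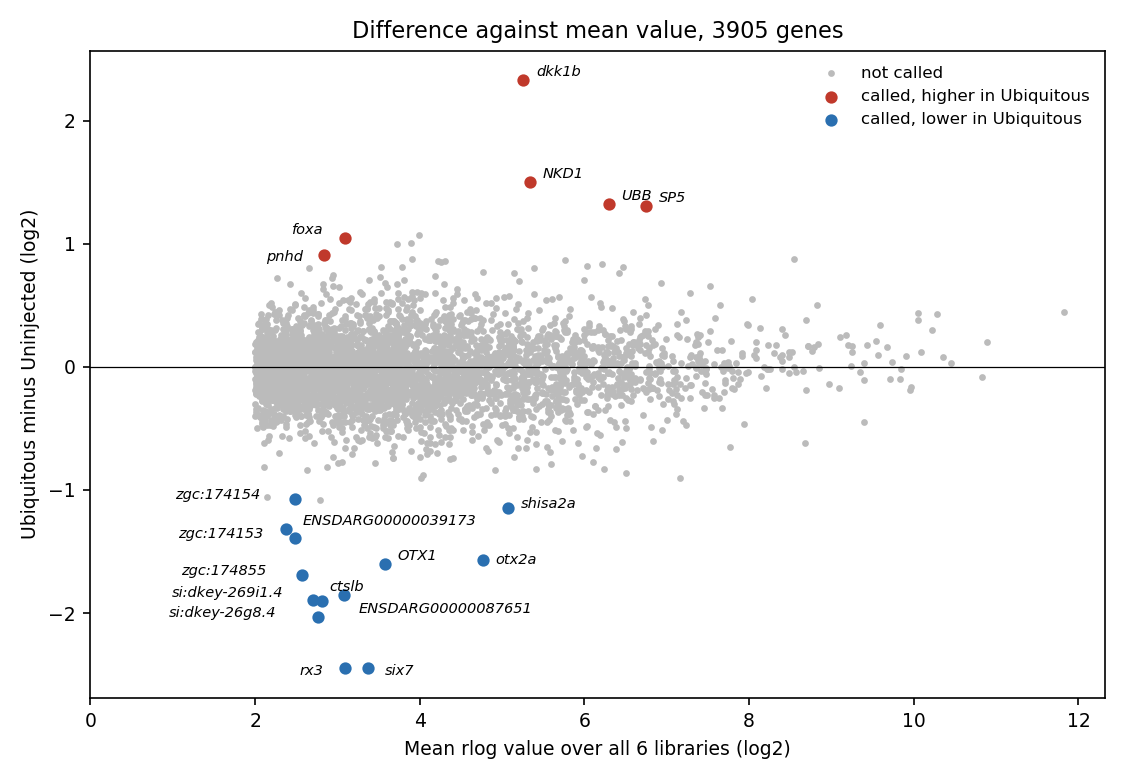
Difference in rlog value (‘Ubiquitous’ minus ‘Uninjected’, log2, vertical axis) against the mean rlog value over all 6 libraries (log2, horizontal axis) for each of the 3905 tested genes. Red and blue points are the 6 called genes that were higher and the 13 that were lower in ‘Ubiquitous’ cells, grey points are genes that were not called, and *dkk1b* at 2.33 and *rx3* and *six7* at -2.45 lie farthest from 0.

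*dkk1b* encodes a secreted antagonist that binds the Wnt co-receptors Lrp5 and Lrp6. Its rlog values were 6.15 and 6.72 in ‘Ubiquitous’ libraries, against 4.29 and 3.93 in ‘Uninjected’ libraries. The inferred counts were 189 and 33 in ‘Ubiquitous’ libraries, against 3 and 34 in ‘Uninjected’ libraries, so the shallowest library of the series held about as many *dkk1b* counts as the deepest. The difference was 2.33 ± 0.24 (SE, n = 2 each; adjusted p = 3.85e-05 by limma), the largest rise among the tested genes. As a share of pooled counts, *dkk1b* was 8.64 times as high in ‘Ubiquitous’ cells (95% exact interval 6.08 to 12.6, counting error only).

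*NKD1*, the zebrafish gene listed under the human symbol of naked cuticle homolog 1, encodes an inhibitor that acts on Dishevelled inside the cell. It had 148 and 23 counts in ‘Ubiquitous’ libraries, against 8 and 50 in ‘Uninjected’ libraries, with rlog values of 5.88 and 6.30 against 4.87 and 4.32. Both ‘Ubiquitous’ libraries lay above both ‘Uninjected’ libraries, and the difference was 1.50 ± 0.25 (SE; adjusted p = 0.00286 by limma). *SP5* encodes a zinc finger transcription factor that is a direct target of β-catenin in several vertebrates. Its rlog values were 7.36 and 7.20 in ‘Ubiquitous’ libraries, against 6.24 and 5.70 in ‘Uninjected’ libraries, with a difference of 1.31 ± 0.24 (SE; adjusted p = 0.00874 by limma). Its pooled share was 3.8 times as high in ‘Ubiquitous’ cells (95% exact interval 3.17 to 4.57). Without Uninjected replicate 2, the deepest library, *NKD1* and *SP5* were no longer called, with differences of 1.22 and 1.04.

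The other members of the Wnt lists did not move as a block. The 5 tested genes listed as Wnt feedback regulators were *dkk1b*, *NKD1*, *AXIN2*, *SFRP1* and *frzb*. Whether *SFRP1* and *frzb* act as feedback genes here was not tested. Of the 5, 2 were called higher, where 0.154% of all tested genes were, and none lower, and the median difference was 0.19. *AXIN2*, a scaffold of the β-catenin destruction complex and a widely used Wnt target, was not called, with rlog values of 3.66 and 3.03 in ‘Ubiquitous’ libraries, against 3.47 and 2.83 in ‘Uninjected’ libraries. The groups overlapped for *AXIN2*, whose counts were 36 and 1 against 5 and 17. The overlap lay between the shallow libraries, with 1 count in Ubiquitous 2 and 5 in Uninjected 1. The pooled share of *AXIN2* was 2.42 times as high in ‘Ubiquitous’ cells (exact interval 1.39 to 4.31, counting error only). Between the deepest libraries of the groups its difference was 0.83. Whether *AXIN2* rose is therefore not settled by these libraries. *SFRP1*, a secreted Wnt-binding protein, had a difference of -0.88 ± 0.24 (SE; adjusted p = 0.255 by limma). Of 9 tested Wnt-responsive transcription factors, *SP5* was the 1 called, and the list's median was -0.02. The largest negative differences in that list were those of *TCF7L1* (-0.83) and *tcf7l1b* (-0.57), which encode Tcf factors that mainly repress Wnt targets, and neither passed the adjusted threshold. *CCND1*, cyclin D1, had a difference of -0.02 and *MYCN* one of -0.45. *LEF1*, the endogenous Wnt target that the study examined beside its reporters, was also among the 9 and was not called. Of the 9 differences 4 were positive, those of *SP5*, *tbx16*, *cdx4* and *tbxta*, so that of *LEF1* was not.

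None of the 21 tested Wnt ligands, receptors and transducers was called, where 0.487% of all tested genes were. Their median difference was -0.04. *LRP6*, the co-receptor that Dkk proteins bind, had the largest difference of this list at 0.71 ± 0.25 (SE; adjusted p = 0.489 by limma). *CTNNB1*, which encodes β-catenin, had 525 and 45 counts in ‘Ubiquitous’ libraries, against 101 and 613 in ‘Uninjected’ libraries, and a difference of -0.04 ± 0.25 (SE). Its groups overlapped. Per the study's methods, β-catCA is a mouse β-catenin that lacks its N-terminus, whereas the reads were aligned to the zebrafish genome. Whether any reads of the transgene were counted for *CTNNB1* was not tested. *hsp70l*, the endogenous gene whose promoter drives the transgene, had 8 and 0 counts in ‘Ubiquitous’ libraries, against 2 and 18 in ‘Uninjected’ libraries, and a difference of -0.25 ± 0.19 (SE).

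**Figure D2:**
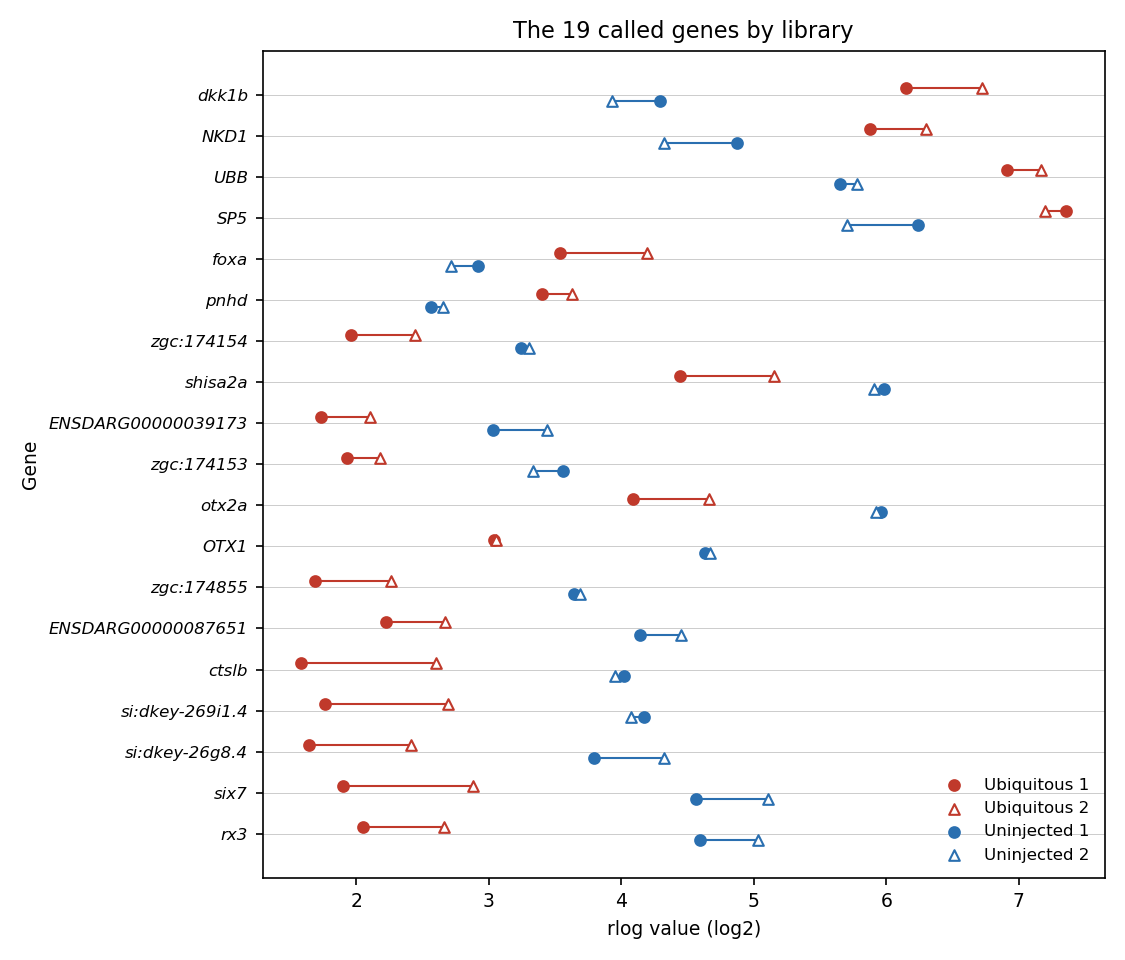
The rlog values (log2, horizontal axis) of the 19 called genes (vertical axis) in each library, with filled circles for library 1 and open triangles for library 2 of each group. Red marks ‘Ubiquitous’ and blue ‘Uninjected’, and the line joins the 2 libraries of a group. The groups do not overlap for any of the 19, which were called on these same values. Of all 3905 tested genes, 13.7% were higher and 19.6% lower without overlap.

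The largest falls among the tested genes were those of *rx3* and *six7*, homeobox genes of the anterior neural plate. *rx3*, which is required for the eye field, had 3 and 0 counts in ‘Ubiquitous’ libraries, against 17 and 191 in ‘Uninjected’ libraries. The difference in rlog value was -2.45 ± 0.26 (SE, n = 2 each; adjusted p = 3.85e-05 by limma). As a share of pooled counts *rx3* was 48.1-fold lower in ‘Ubiquitous’ cells, with a wide 95% exact interval of 16.2 to 235. *six7*, a Six-family homeobox gene of the eye field, had no count in either ‘Ubiquitous’ library, against 15 and 192 in the ‘Uninjected’ libraries. As a share of pooled counts *six7* was at least 38.6-fold lower by the limit of the 95% exact interval, and 47.9-fold lower where 3 counts over both ‘Ubiquitous’ libraries are taken as the floor. Its rlog difference was -2.45 ± 0.29 (SE; adjusted p = 0.000149 by limma).

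The 2 called Otx genes specify forebrain and midbrain. *otx2a* had rlog values of 4.09 and 4.66 in ‘Ubiquitous’ libraries, against 5.96 and 5.92 in ‘Uninjected’ libraries, a difference of -1.57 ± 0.24 (SE; adjusted p = 0.00144 by limma). Unlike *six7*, it remained detected in both ‘Ubiquitous’ libraries, with 30 and 5 counts. *OTX1* had 13 and 0 counts in ‘Ubiquitous’ libraries, against 15 and 124 in ‘Uninjected’ libraries, and differed by -1.60 ± 0.23 (SE; adjusted p = 0.00067 by limma). *shisa2a* belongs to a family that, in *Xenopus*, retains Frizzled and Fgf receptors inside the cell and promotes head formation. It had 40 and 8 counts in ‘Ubiquitous’ libraries, against 29 and 241 in ‘Uninjected’ libraries, and differed by -1.15 ± 0.25 (SE; adjusted p = 0.0596 by limma). The *shisa2a* call was lost without Ubiquitous replicate 1 and without either ‘Uninjected’ library, and its differences with 1 library left out ran between -1.50 and -0.80.

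Over the whole anterior neural list, 11 genes were tested, 4 were called lower and none higher. Among all tested genes, 0.333% were called lower. All 11 differences were negative and their median was -0.81, against -0.03 over all tested genes. At an unadjusted p-value under 0.05, 7 of the 11 were lower, where 3.89% of all tested genes were. The groups did not overlap for 7 of the 11 genes, all lower, where 19.6% of all tested genes had both ‘Ubiquitous’ libraries below both ‘Uninjected’ libraries. These tallies include the 4 genes called lower on the same libraries, and the list was chosen with earlier results of these data known. The tallies are therefore not separate evidence that the list was lower, and its median is the value of *SIX3* and *PAX6*. *SIX3* and *PAX6*, further regulators of forebrain and eye, each had a difference of -0.81 and missed the threshold (adjusted p = 0.437 and 0.426 by limma). *SIX3* had 7 and 0 counts in ‘Ubiquitous’ libraries, against 2 and 78 in ‘Uninjected’ libraries, and *PAX6* had 1 and 0 counts, against 1 and 55. For both genes, which are among the 7, most counts were in Uninjected replicate 2. Uninjected replicate 1 held 0.171 per 10000 counts for *PAX6* and 0.343 for *SIX3*. These levels are below the 0.869 that a count of 0 in Ubiquitous 2 allows, so the counts do not settle the order of these shallow libraries. Without Uninjected replicate 1 both were called, at -1.32 for *SIX3* and -1.31 for *PAX6* (adjusted p = 0.015 by limma for each), and with 1 library left out the smallest differences were -0.31 and -0.30.

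The remaining anterior genes varied. *ZIC2* and *DLX3*, which also mark dorsal neural tissue or the neural plate border, had differences of -0.30 and -0.20, and their groups overlapped. A further 12 listed anterior genes fell below the filter and were not tested. Among them *OTX2* had 1 and 0 counts in ‘Ubiquitous’ libraries, against 2 and 38 in ‘Uninjected’ libraries, *FEZF2* had 1 and 0 against 0 and 25, and *lhx5* had 6 and 0 against 2 and 31. These were the most counted of the 12 in Uninjected replicate 2, where no other had more than 5 counts. Uninjected replicate 1 held at most 2 counts of each, so the contrast lay with Uninjected replicate 2. Summed over the list, anterior neural genes took 12.5 and 6.95 per 10000 counts in ‘Ubiquitous’ libraries, against 23.1 and 33.9 in ‘Uninjected’ libraries. Each ‘Ubiquitous’ value lay below both ‘Uninjected’ values. These sums include the 4 genes called lower on the same libraries. They therefore do not show whether the rest of the list was lower.

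**Figure D3:**
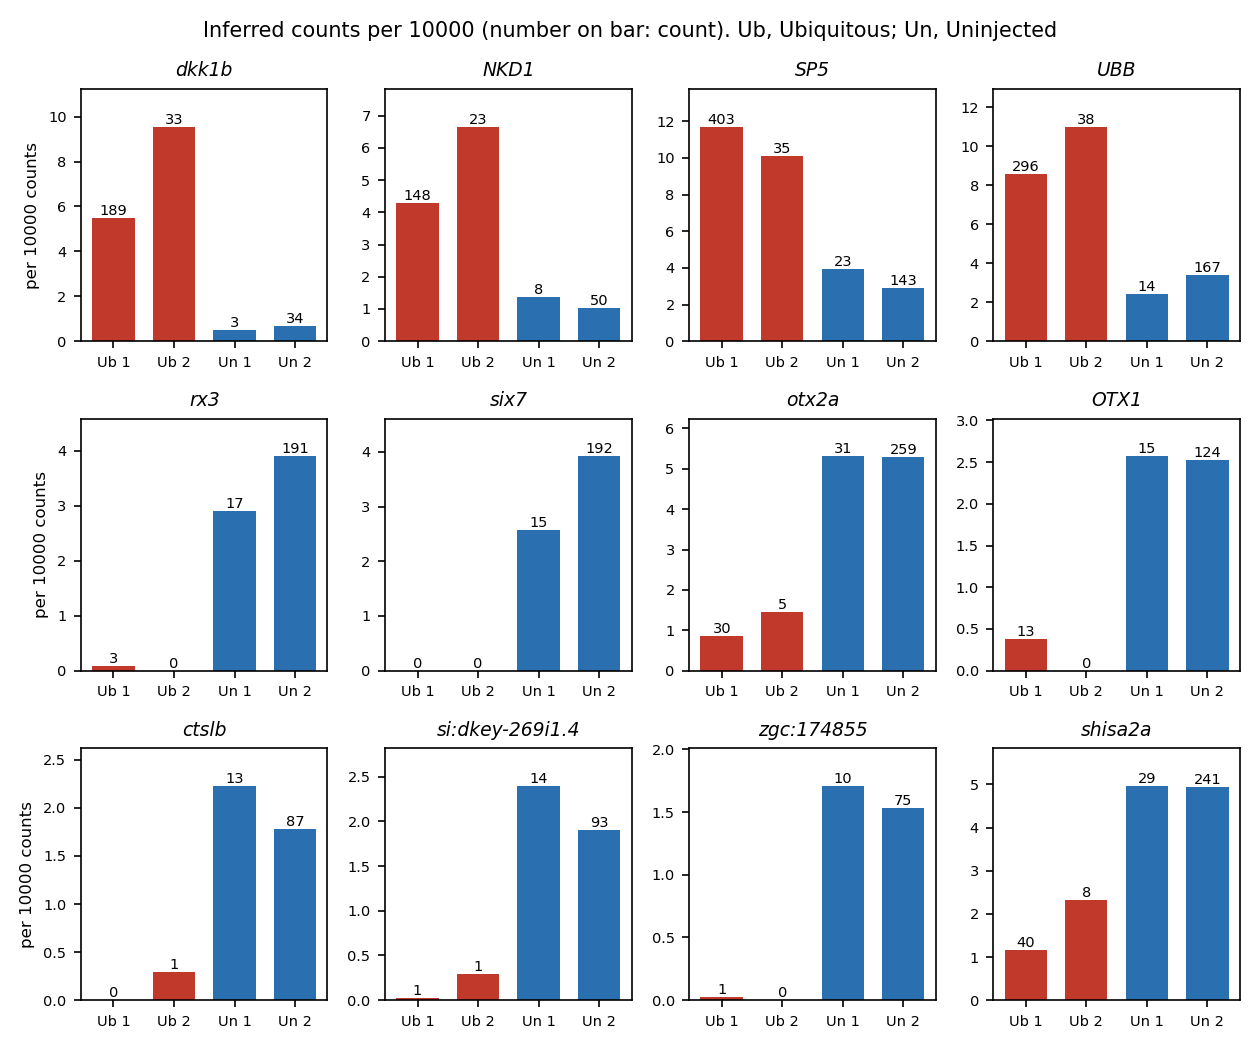
Inferred counts per 10000 counts of the library (vertical axis, starting at 0) for 12 called genes in each of the 4 libraries, with the count itself above each bar. *dkk1b*, *NKD1*, *SP5* and *UBB* are higher in both ‘Ubiquitous’ libraries (red), and the other 8 genes are lower in both than in either ‘Uninjected’ library (blue).

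The cathepsin L-like genes formed the largest group among the called genes. *ctslb*, also known as *hgg1*, is a marker of the polster, the anterior prechordal plate that gives rise to the hatching gland. It had 0 and 1 counts in ‘Ubiquitous’ libraries, against 13 and 87 in ‘Uninjected’ libraries, and differed by -1.89 ± 0.26 (SE; adjusted p = 0.00056 by limma). In the RefSeq annotation of the GRCz12tu assembly, *ctslb* and 5 further called genes lie on the same chromosome within a run of 15 protein-coding genes. These are *zgc:174154*, *si:dkey-269i1.4*, *si:dkey-26g8.4*, *zgc:174855* and *zgc:174153*, and 5 of the 6 carry the synonym *ctsl*.

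All 6 fell. *si:dkey-26g8.4* had no count in either ‘Ubiquitous’ library, against 10 and 123 in the ‘Uninjected’ libraries, and was at least 24.7-fold lower by the limit of the 95% exact interval (30.8-fold at the floor of 3 counts over both ‘Ubiquitous’ libraries). *si:dkey-269i1.4* had 1 count in each ‘Ubiquitous’ library, against 14 and 93 in the ‘Uninjected’ libraries, and differed by -1.90 ± 0.26 (SE; adjusted p = 0.000454 by limma). *zgc:174855* had 1 and 0 counts in ‘Ubiquitous’ libraries, against 10 and 75 in ‘Uninjected’ libraries. *zgc:174153* and *zgc:174154* differed by -1.39 and -1.07, and the call of *zgc:174154* was lost without Ubiquitous replicate 1 and without Uninjected replicate 2. Whether the counting split or shared reads among these neighbouring genes was not tested, so their values may not be independent of each other.

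*ctsla*, a related cathepsin with broad expression, had a difference of 0.09, and its counts of 265 and 36 in ‘Ubiquitous’ libraries, against 43 and 455 in ‘Uninjected’ libraries, overlapped as rlog values. In the prechordal plate and hatching gland list, *ctslb* was the 1 of 7 tested genes called, where 0.333% of all genes were called lower. *klf17*, a zinc finger factor of the polster, had a difference of -0.84, and *GSC*, goosecoid of the prechordal plate, one of -0.71, and neither passed the adjusted threshold (adjusted p = 0.403 and 0.426 by limma). Most *klf17* counts were in Uninjected replicate 2, with 5 and 0 in ‘Ubiquitous’ libraries, against 2 and 70 in ‘Uninjected’ libraries. With 1 library left out its smallest difference was -0.36. Of the 7 differences in the list, 3 were positive and 4 negative, with a median of -0.30 and a highest value of 0.12. The list took 10.2 and 13.3 per 10000 counts in ‘Ubiquitous’ libraries, against 13 and 17 in ‘Uninjected’ libraries, and these values overlapped. In each of the 4 libraries most of these counts were *ctsla*. Without *ctsla*, a sum added after the data were examined, the list took 2.58 and 2.9 per 10000 counts in ‘Ubiquitous’ libraries, against 5.66 and 7.7 in ‘Uninjected’ libraries, without overlap and with *ctslb* among its members. Ubiquitous 2 and Uninjected 1 held 10 and 33 of these counts, of which *ctslb* had 1 and 13. The sum therefore does not show whether the rest of the list was lower. The last 2 called genes that fell have no name in the tables used. ENSDARG00000087651 had 4 and 0 counts in ‘Ubiquitous’ libraries, against 12 and 122 in ‘Uninjected’ libraries, and ENSDARG00000039173 had 2 and 0 against 6 and 68.

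Genes of posterior identity were shifted less. None of the 18 tested posterior patterning genes was called, where 0.487% of all tested genes were. At an unadjusted p-value under 0.05 by limma, 3 were higher and none lower, where 2.87% of all tested genes were higher. Of the 18 differences 14 were positive, with a median of 0.29, and for 8 genes both ‘Ubiquitous’ libraries lay above both ‘Uninjected’ libraries, where 13.7% of all tested genes did. *GBX1*, a homeobox gene of the anterior hindbrain, had rlog values of 6.02 and 5.93 in ‘Ubiquitous’ libraries, against 5.28 and 4.94 in ‘Uninjected’ libraries, a difference of 0.87 ± 0.24 (SE; adjusted p = 0.267 by limma). *meis2b*, a Hox cofactor, had a difference of 0.81, but its rlog values of 7.29 and 5.80 in ‘Ubiquitous’ libraries overlapped those of 6.07 and 5.39 in ‘Uninjected’ libraries. The difference in *meis2b* rested on Ubiquitous replicate 1: it was 0.07 without that library, and 1.56 without Ubiquitous replicate 2, where the gene was called (adjusted p = 0.0128 by limma). *tbx16*, a T-box factor of posterior mesoderm, differed by 0.60, *cdx4*, which activates posterior Hox genes, by 0.28 and *eve1* by 0.36. Summed over the list, posterior genes took 62.5 and 51.5 per 10000 counts in ‘Ubiquitous’ libraries, against 41.5 and 34.2 in ‘Uninjected’ libraries, without overlap. The 95% counting intervals of the shallow libraries did overlap, at 44.2 to 59.7 in Ubiquitous 2 and 36.4 to 47 in Uninjected 1. *meis2b* held 397 of the 2161 counts of the list in Ubiquitous 1.

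**Figure D4:**
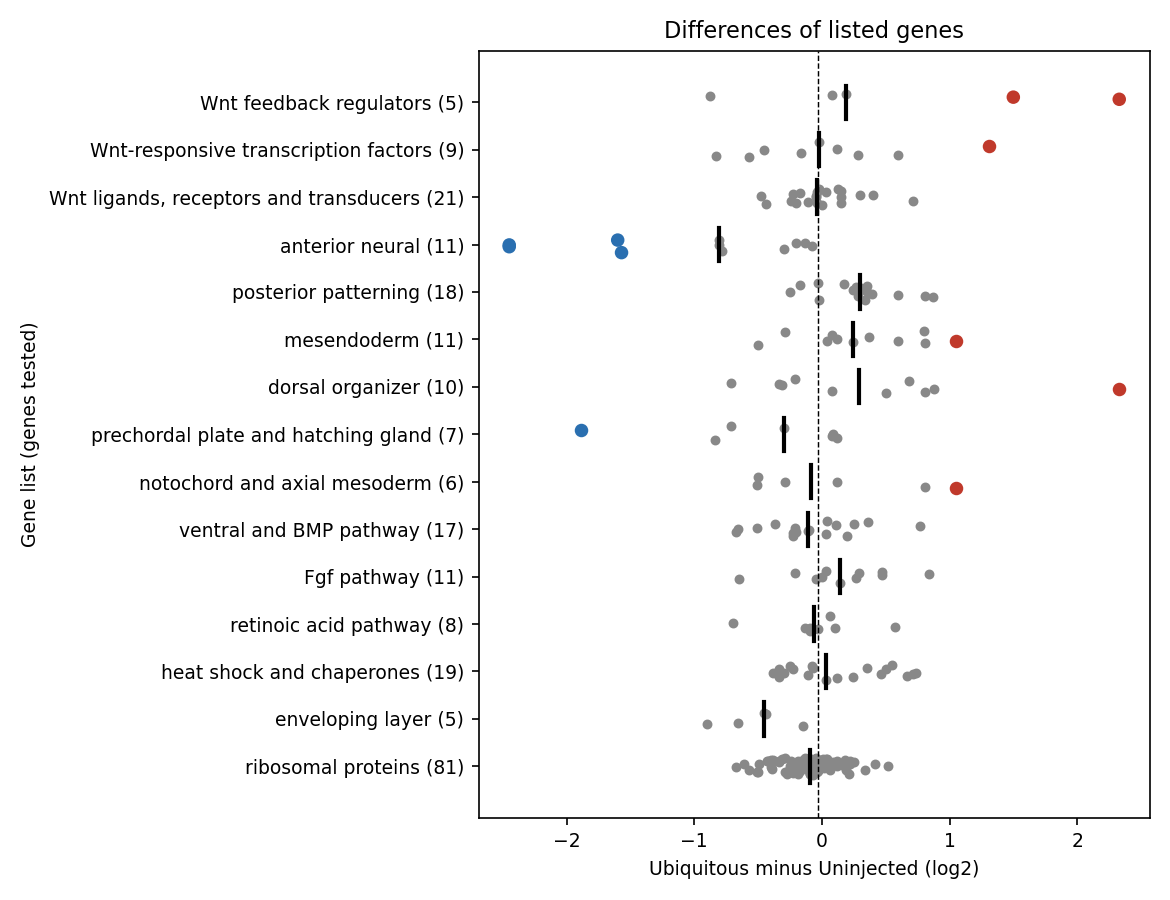
Difference in rlog value (‘Ubiquitous’ minus ‘Uninjected’, log2, horizontal axis) of each tested gene in 15 lists (vertical axis, with the number of genes tested). Red and blue points are called genes, grey points are not called, black bars are list medians and the dashed line is the median of all tested genes at -0.03. The anterior neural list, with a median of -0.81, has every gene below 0, with the 4 genes called lower among them.

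In the mesendoderm list, 11 genes were tested and *foxa* was the 1 called, where 0.154% of all tested genes were called higher. Of the 11 differences 9 were positive, with a median of 0.24. At an unadjusted p-value under 0.05 by limma, 4 were higher and none lower, where 2.87% of all tested genes were higher. The groups did not overlap for 5 genes that were higher and 2 that were lower, where 13.7% and 19.6% of all tested genes had these orders. *foxa* encodes a forkhead factor and had 33 and 9 counts in ‘Ubiquitous’ libraries, against 2 and 17 in ‘Uninjected’ libraries. Its difference was 1.05 ± 0.24 (SE; adjusted p = 0.0871 by limma), and the call was lost without Ubiquitous replicate 2 and without either ‘Uninjected’ library, with differences between 0.73 and 1.38. *noto*, a notochord homeobox gene, and *mixl1*, an endoderm homeobox gene, had differences of 0.81 and 0.80 and did not pass the adjusted threshold. *tbxta*, the zebrafish Brachyury gene and a Wnt target in mesoderm, differed by 0.12 and its groups overlapped. *pnhd*, which encodes a secreted protein known from *Xenopus* as pinhead, had 33 and 6 counts in ‘Ubiquitous’ libraries, against 1 and 18 in ‘Uninjected’ libraries. Its difference was 0.91 ± 0.21 (SE; adjusted p = 0.0993 by limma), and the call was lost with any 1 of the 4 libraries left out. In the dorsal organizer list, *dkk1b* was the 1 of 10 tested genes called, and the median difference was 0.29. At an unadjusted p-value under 0.05 by limma, 4 were higher and 1 lower, where 2.87% and 3.89% of all tested genes were. The 4 were *dkk1b*, *noto*, which is also in the mesendoderm list, and 2 entries named *FOXB1* (0.88 and 0.68). The 1 lower was *GSC*, goosecoid, at -0.71. The groups did not overlap for 5 genes that were higher and 1 that was lower, where 13.7% and 19.6% of all tested genes had these orders. *chrd*, the Bmp antagonist chordin, had a difference of 0.50.

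The sixth gene that rose was *UBB*, which encodes polyubiquitin. It had 296 and 38 counts in ‘Ubiquitous’ libraries, against 14 and 167 in ‘Uninjected’ libraries, a difference of 1.32 ± 0.22 (SE; adjusted p = 0.00392 by limma). *ubc*, a second polyubiquitin gene named after its values were seen, had a difference of 0.01. Polyubiquitin genes encode repeats of the same protein, and how reads were divided between these genes was not tested. None of 19 tested heat shock and chaperone genes was called, where 0.487% of all tested genes were, and their median difference was 0.03. In that list *UNC45B*, *hsp70.3*, *hsp90aa1.1* and *STIP1* had differences of 0.74, 0.71, 0.67 and 0.55 and unadjusted p-values between 0.00498 and 0.0277 by limma, while the more abundant *HSPA8* and *HSPB1* were at -0.11 and 0.03. These 4 of 19 were the members higher at an unadjusted p-value under 0.05, where 2.87% of all tested genes were. *HSPB8*, a small heat shock protein that was not in the list, had 49 and 3 counts in ‘Ubiquitous’ libraries, against 1 and 11 in ‘Uninjected’ libraries. Its difference of 1.01 ± 0.25 (SE; adjusted p = 0.123 by limma) was larger than that of any list member, and its pooled share was 6.24 times as high in ‘Ubiquitous’ cells (95% exact interval 3.29 to 12.8). The list took 225 and 226 per 10000 counts in ‘Ubiquitous’ libraries, against 237 and 192 in ‘Uninjected’ libraries. What part heat shock had in the rise of *UBB* was not tested.

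Markers of the enveloping layer, the thin epithelium that covers the gastrula, were examined because it could enter a sort in different amounts. None of 5 tested markers was called, where 0.487% of all tested genes were. All 5 differences were negative with a median of -0.45, led by the keratins *krt8* (-0.90) and *krt4* (-0.66). Both ‘Ubiquitous’ libraries lay below both ‘Uninjected’ libraries for 4 of the 5, where 19.6% of all tested genes had this order. The summed level of the list was 15.8 and 10.4 per 10000 counts in ‘Ubiquitous’ libraries, against 17.1 and 35.9 in ‘Uninjected’ libraries, so the contrast lay mainly with 1 ‘Uninjected’ library. Its part in the other differences was not tested. The yolk syncytial layer genes *apoeb* and *apoc1* had differences of -0.05 and -0.02.

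Few calls could be expected in the lists of other signalling pathways of the gastrula, since 0.487% of all tested genes were called. None of 17 tested ventral and Bmp genes, 11 Fgf genes or 8 retinoic acid genes passed the threshold, and their medians were -0.11, 0.14 and -0.06. *CYP26A1*, which degrades retinoic acid, had a difference of -0.70 and *ALDH1A2*, which synthesizes it, one of 0.57. *IL17RD*, an Fgf feedback inhibitor also known as Sef, had a difference of 0.84 and *fgfr4* one of -0.65. *cdh1*, which encodes E-cadherin, the partner of β-catenin at the membrane, had 46 and 4 counts in ‘Ubiquitous’ libraries, against 10 and 51 in ‘Uninjected’ libraries, and a difference of -0.01 ± 0.24 (SE). *CDH2*, N-cadherin, differed by 0.20. None of the 81 tested ribosomal protein genes was called, where 0.487% of all tested genes were, and their median was -0.09.

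‘Ubiquitous’ cells were also set beside ‘Mosaic’ cells for the called genes, in a comparison that shares the ‘Ubiquitous’ libraries and was added after the data were examined. Between these groups 52 of 3905 genes were called (1.33%). *dkk1b* was higher in ‘Ubiquitous’ cells, with 6.15 and 6.72 against 5.27 and 5.21 in ‘Mosaic’ cells and a difference of 1.19 ± 0.24 (SE; adjusted p = 0.034 by limma). *foxa* and *pnhd* differed by 1.30 and 1.11 (adjusted p = 0.025 by limma for each) and *UBB* by 0.91 (adjusted p = 0.0731 by limma). For *rx3*, with rlog values of 2.05 and 2.66 in ‘Ubiquitous’ cells and 1.94 and 2.29 in ‘Mosaic’ cells, the difference was 0.24 ± 0.26 (SE; adjusted p = 0.721 by limma). Its counts were 3 and 0 against 0 and 3, so both groups lay near the floor and a difference could hardly appear. *six7* and *otx2a* had differences of -0.50 and 0.36 between these groups, the lowest and highest among the 13 genes named above as lower than in ‘Uninjected’ cells, and *SP5* had one of 0.26. None of these passed the threshold. *six7* had no count in either ‘Ubiquitous’ library, against 6 and 9 in ‘Mosaic’ libraries (0.276 and 0.375 per 10000 counts). These ‘Mosaic’ levels are above the 0.0868 that a count of 0 in Ubiquitous 1 allows, so the missed threshold does not show equal levels of *six7*.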

How the data were processed

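CEL-Seq2 libraries were made from sorted cells. Per the labels and the study's methods, reads were aligned to GRCz10 with Bowtie2 (2.3.1) and counted per gene with HTSeq (0.6.1), with duplicate molecular identifiers discarded. The values the authors deposited are rlog values on the log2 scale, and all 6 columns were used. Whole counts were inferred by inverting the rlog. They gave back the deposited values to within 0.001 for all 14132 genes not listed at 0, but were not taken from the authors.

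The groups' rlog means were tested with limma (3.58.1 in R 4.3.3), fitted over all 6 libraries with a variance trend. In the fit, ‘Mosaic’ added only to the estimate of the spread. Its libraries also entered the filter on the mean value and the rlog, which shrinks each gene's values over all 6 libraries. Benjamini-Hochberg adjustment ran over the 3905 genes that reached a mean value of 2, and a gene was called at an adjusted p under 0.1. Counts, intervals and figures were computed in Python 3.11.15 with numpy 2.4.6, scipy 1.17.1, pandas 2.3.3 and matplotlib 3.10.9. Counting intervals ignore replicate error. The fit and the inversion were tested on simulated data.

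A table pairing Ensembl identifiers with symbols named 3822 of these 3905 genes. Of 497 listed names, 363 were matched by symbol, 108 without the paralog letter and 8 by synonym, and 18 were not matched. Symbols are printed as the table gives them. Members and lists were chosen with earlier results of these data known. Named genes were the called genes, the 10 of smallest p in each direction, the members of each list with the largest differences or highest means, and *CTNNB1*, *cdh1* and *hsp70l*; genes outside this rule, such as *ubc* and untested list members, were chosen after their values were seen. Some items are not reported here.

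Alternatives were other filters, scalings, variance priors and samples, the lot number as a block, a stricter threshold, voom on the inferred counts, each library left out, and the deepest library of each group alone.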

Additional observations from a re-analysis of the deposited data

How the results depend on the processing

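The 19 calls (6 higher, 13 lower) depended on the filter. Without a filter 7 genes were called (1 higher, 6 lower), and with a mean rlog of at least 4 there were 5 calls (1 lower), since most called genes lie below that level. Leaving out a library gave 14 to 25 calls, 2 to 9 higher and 12 to 20 lower, with the lone library of a group assumed to vary like the other groups. The lot number did not pair the libraries (correlations of same-numbered deviations -0.06, -0.12 and -0.04). With the replicate block 23 genes were called, the 19 among them. By voom 26 were called, 17 of the 19 among them, without *foxa* and *pnhd*, which were also lost with only the 4 libraries fitted. Quantile normalization lost *shisa2a* (20 calls). No called gene changed sign. Of the genes named but not called, 11 were called in an alternative: *HSPB8* in 7 of 12 and *BCAS2* in 6 of 12 (lowest adjusted p 0.0271 and 0.0551 by limma), *klf17*, *PAX6* and *SIX3* in 2 each, and *msi1a*, *IL17RD*, *krt8*, *mixl1*, *TFAP2C* and *meis2b* in 1 each. Of the same genes, 14 changed sign in some setting, and the cause was not tested.

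Between the deepest libraries these were *HSPA8* (0.21), *ctsla* (-0.16), *apoeb* (0.18), *CTNNB1* (0.30), *CCND1* (0.02), *ubc* (-0.27) and *cdh1* (0.28). By voom they were *ctsla* (-0.05), *CTNNB1* (0.04), *ubc* (-0.15) and *cdh1* (0.16). Under quantile normalization they were *HSPB1* (-0.23), *ubc* (-0.03) and *cdh1* (0.03), and after centring *apoc1* (0.01), *CCND1* (0.01) and *cdh1* (0.03). With a library left out, differences ran between -0.66 and 0.05 for *ZIC2*, -0.05 and 0.45 for *CDH2*, -0.52 and 0.12 for *DLX3*, -0.13 and 0.52 for *AXIN2*, -0.52 and 0.29 for *HSPA8*, -0.45 and 0.69 for *tbxta*, -0.10 and 0.28 for *ctsla*, -0.23 and 0.13 for *apoeb*, -0.31 and 0.23 for *CTNNB1*, -0.38 and 0.45 for *HSPB1*, -0.26 and 0.21 for *apoc1*, -0.11 and 0.06 for *CCND1*, -0.15 and 0.17 for *ubc*, and -0.29 and 0.27 for *cdh1*. Depth limits every count of 0 in Ubiquitous 2.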

Other observations

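Outside the lists, 3 genes were among the 10 with the smallest unadjusted p-values of those higher in ‘Ubiquitous’ cells and were not called. *BCAS2*, which encodes a spliceosome component, had 83 and 7 counts in ‘Ubiquitous’ libraries, against 3 and 30 in ‘Uninjected’ libraries, and a difference of 1.07 ± 0.25 (SE; adjusted p = 0.103 by limma). *HSPB8* is described with the heat shock genes. *msi1a*, a neural RNA-binding protein of the Musashi family, had 23 and 2 counts in ‘Ubiquitous’ libraries, against 0 and 6 in ‘Uninjected’ libraries, and a difference of 0.72 (adjusted p = 0.206 by limma).

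Several further regulators had differences in the same size range without passing the adjusted threshold. *SALL4* and *BCL2L1*, an anti-apoptotic Bcl-2 relative, were at -0.73 and -0.62. *msx1b*, a homeobox gene of the neural plate border, was at 0.77, whereas *GATA2* and *TFAP2C* of the ventral ectoderm were at -0.67 and -0.66. *TFAP2C* had 2 counts in Ubiquitous 2, and between the deepest libraries its difference was -0.21. *TFAP2A* was at 0.20 and its groups overlapped. These genes are from the ventral and Bmp list, in which 7 differences were positive and 10 negative. *pou5f3* was at 0.50 and *FGF8* at 0.47. *ctslb.4*, a cathepsin gene below the filter, had 2 and 0 counts in ‘Ubiquitous’ libraries, against 4 and 42 in ‘Uninjected’ libraries. *ctsll*, another below the filter, had 2 and 1 against 0 and 9, so Uninjected 1 did not lie above the ‘Ubiquitous’ libraries. Both were named after their values were seen.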
